A study of Rattus norvegicus with 2 samples.

Results

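Protein kinase C (PKC) isoforms and Ptk2b were followed here by their mRNA in a synaptic fraction and in whole tissue. The RNA came from 2 sources: synaptosomes prepared biochemically from the hippocampi of Sprague Dawley rats aged postnatal day 70, and the total hippocampus of rats of the same strain and age. No treatment and no genetic change is given in the labels, and they do not say how many animals were pooled. Each source was measured on 1 Affymetrix rat array, so every value is a single measurement and no test between the sources was possible. The members are 7 genes, Prkca, Prkcb, Prkcd, Prkce, Prkch, Prkcz and Ptk2b, taken with every probe set that the platform annotation gives to that gene alone. These were 16 of the 8740 non-control probe sets, and 14 of them passed the filter on low signals. The set was selected on these same 2 arrays, because Prkcb and Ptk2b were higher in synaptosomes with each of their probe sets. The differences below are therefore a description.

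PKC isoforms are serine/threonine kinases that carry signals from receptors coupled to phospholipase C. The conventional isoforms, such as those encoded by Prkca and Prkcb, need calcium and diacylglycerol. The calcium-independent isoforms of Prkcd, Prkce and Prkch respond to diacylglycerol alone, and the atypical isoform of Prkcz responds to neither. Ptk2b encodes Pyk2, a tyrosine kinase related to focal adhesion kinase that is activated downstream of calcium and PKC and recruits Src family kinases. At hippocampal synapses, PKC and Pyk2 are known for their part in transmitter release, NMDA receptor regulation and synaptic plasticity.

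The deposited values are linear signals, of which 25.2% of the synaptosome values and 31.4% of the hippocampus values lie at or below 0. A signal under 846, the median of all non-control values, was set to 846 before log2 was taken, and this value is called the floor. The log2 ratio is synaptosomes minus total hippocampus after subtraction of its median, -0.17, so that a typical filtered probe set lies at 0. A gene was counted as higher or lower at 2-fold, or 1 on the log2 scale. As a guide to noise, 95% of negative signals were smaller in size than 2913 in synaptosomes and 5280 in the hippocampus, and a signal below that size is uncertain. In RNA from mixed material, fewer cells or endings of a type and less RNA in each cannot be told apart.

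Prkcb, Prkce and Ptk2b had higher signals in synaptosomes with all 9 of their probe sets, while the other 4 genes differed by less than 2-fold with all 5 of theirs that passed the filter. At 2-fold, 7 of the 14 filtered member probe sets were higher in synaptosomes and 0 were lower, and the remaining 7 lay between. Over all 3569 filtered probe sets with a single gene symbol, 19.4% were higher by 2-fold or more and 14.5% lower by 2-fold or more, and 50.2% had a log2 ratio above 0. The median log2 ratio of the 14 member probe sets was 0.98, against 0.0043 for all filtered probe sets. With the brightest probe set of each gene, 3 of the 7 genes were at least 2-fold higher and 0 were lower, and their median was 0.0043. The shares over all 2735 filtered genes were 19.1% higher and 14.3% lower. The choice of members used this contrast, so these counts carry no weight as evidence about the family.

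**Figure D1:**
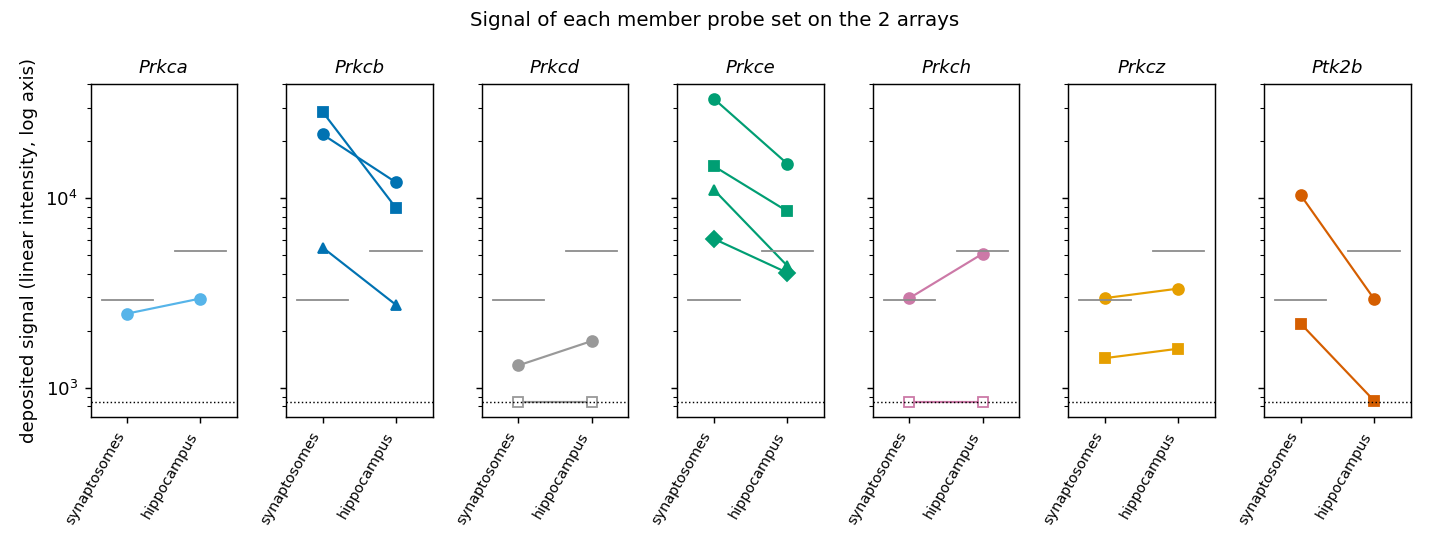
Deposited signal (linear intensity on a log axis) of each of the 16 member probe sets, with synaptosomes at the left and total hippocampus at the right of each panel and a line joining the values of a probe set. Open symbols were at the floor of 846 (dotted line), and grey bars mark 2913 and 5280, the size that 95% of negative signals did not reach on each array. All lines of Prkcb, Prkce and Ptk2b are higher in synaptosomes, and those of Prkca, Prkcd, Prkch and Prkcz are level, lower or at the floor.

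Prkcb, the conventional isoform encoding PKC beta, had 3 probe sets built on 3 source sequences. The probe set X04139_s_at gave 28442 in synaptosomes and 8889 in the hippocampus, which is 3.60-fold higher (log2 ratio 1.85). With E01789cds_s_at the signals were 21659 in synaptosomes and 12116 in the hippocampus, a log2 ratio of 1.01. The dimmest, K03486_s_at, read 5493 in synaptosomes and 2743 in the hippocampus, a log2 ratio of 1.17 or 2.25-fold. All 3 were thus at least 2-fold higher in synaptosomes, but E01789cds_s_at lay at the threshold and stayed above it in only 1 of the 9 alternative settings that gave it a value. Its plain quotient of signals was 1.79. K03486_s_at read below 5280 in the hippocampus. With each array's floor at the noise guide its log2 ratio was at least 0.40, no longer past 2-fold. That bound includes the subtraction of the setting's median, -0.34, as does the 1.18 of E01789cds_s_at, its only alternative above 2-fold. The other Prkcb probe sets read above the noise guide on both arrays. Over the 3 probe sets the log2 ratio had a standard deviation (SD) of 0.45. The suffix _s marks probe sets that may match more than a single transcript, and which Prkcb splice forms each of them reads is not given in the sources used here.

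Prkca, the other conventional isoform with a probe set, encodes PKC alpha. It read 2467 in synaptosomes and 2963 in the hippocampus with its single probe set, a log2 ratio of -0.09. Both signals lay within the noise guide, so a difference was not detectable at this signal. Its log2 ratio ranged from -0.26 to 0.00097 over 9 alternatives.

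Prkce, which encodes the calcium-independent isoform PKC epsilon, was higher in synaptosomes with all 4 probe sets, and 2 of them passed 2-fold. The brightest, M18331_g_at, had a signal of 33393 in synaptosomes and 15211 in the hippocampus, a log2 ratio of 1.30 or 2.47-fold. M18331_at, designed on the same source sequence, read 11072 in synaptosomes and 4414 in the hippocampus, 2.82-fold higher. These paired designs differed by 0.19 in log2 ratio. Over the 285 source sequences with exactly 2 filtered probe sets, the median difference was 0.61 and the 90th percentile 1.92. The probe set rc_AA799421_at read 14738 in synaptosomes and 8549 in the hippocampus, a log2 ratio of 0.96, just under the 2-fold threshold. M15523_s_at read 6109 in synaptosomes and 4054 in the hippocampus, a log2 ratio of 0.76. The SD over the 4 probe sets was 0.33, and M18331_g_at and rc_AA799421_at read above the noise guide on both arrays.

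The other calcium-independent isoforms gave low signals and no difference of 2-fold. Prkch, encoding PKC eta, read 2979 in synaptosomes and 5105 in the hippocampus with rc_AA799981_at, a log2 ratio of -0.61. This was the lowest ratio among the members, 1.52-fold lower in synaptosomes, with the hippocampal signal under 5280. Its other probe set, X68400_at, read -339 in synaptosomes and -1142 in the hippocampus and has no ratio. Prkcd, encoding PKC delta, read 1316 in synaptosomes and 1768 in the hippocampus with M18330_g_at, a log2 ratio of -0.26. M18330_at, from the same source sequence, read -797 in synaptosomes and -1530 in the hippocampus. Presence of Prkcd was therefore not detectable with M18330_at and uncertain with M18330_g_at.

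Prkcz, the atypical isoform encoding PKC zeta, had nearly equal signals on the 2 arrays. M18332_s_at read 2978 in synaptosomes and 3341 in the hippocampus, and J04532_at read 1438 in synaptosomes and 1612 in the hippocampus. The log2 ratios were 0.0043 and 0.0054. Without the centring they were -0.17 and -0.16. Both signals of J04532_at and the hippocampal signal of M18332_s_at lay within the noise guide, so a difference was not detectable at these signals. The RefSeq gene table lists names of a 14-3-3 protein among the synonyms of Prkcz, so which transcript these probe sets read carries some doubt.

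Ptk2b, encoding Pyk2, had the highest log2 ratio of the 7 genes with the floor of 846. With each array's floor at its noise guide the order is not settled, as Ptk2b was at least 1.32 and Prkce 1.48. Both values include the subtraction of that setting's median, -0.34. The 1.32 is thus a bound on the centred ratio and not on the quotient of signals. After quantile normalization Ptk2b was at 1.88, close to Prkcb at 1.85. There X04139_s_at was the brightest Prkcb probe set, while E01789cds_s_at was at 0.96. AF063890_s_at read 10388 in synaptosomes and 2957 in the hippocampus, a log2 ratio of 1.98 or 3.95-fold. U69109_s_at read 2186 in synaptosomes and 860 in the hippocampus, a log2 ratio of 1.52 or 2.86-fold. Both hippocampal signals lay below 5280, and 860 was barely above the floor, so the sizes of these folds are uncertain. The synaptosome signal of U69109_s_at, 2186, also lay below 2913, so the direction of its difference is uncertain as well. The bound of 1.32 comes from AF063890_s_at, and U69109_s_at had no ratio with those floors.

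**Figure D2:**
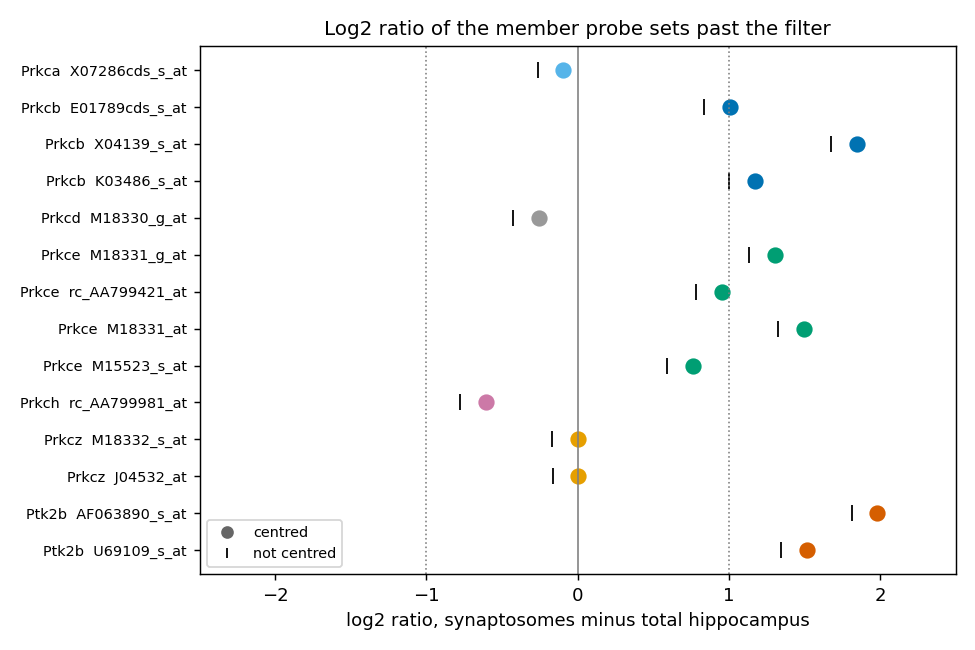
Log2 ratio (synaptosomes minus total hippocampus) of the 14 member probe sets past the filter, as centred values (dots) and without centring (ticks), with dotted lines at 2-fold in each direction. The 3 Prkcb, 4 Prkce and 2 Ptk2b probe sets lie between 0.76 and 1.98, and the other 5 lie between -0.61 and 0.0054.

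Agreement between probe sets of a gene is given as a description, since it was part of what chose Prkcb and Ptk2b. Of the 7 genes, 4 had several filtered probe sets, and in all 4 every log2 ratio was above 0 as reported. Those of Prkcz were so close to 0 that they turned negative without centring. Over the alternative settings that gave a value, M18332_s_at of Prkcz was above 0 in 0 of 9 and J04532_at in 3 of 6. Among the 658 genes with 2 or more filtered probe sets, 31.9% had all log2 ratios above 0, and 28.1% of those with 3 or more did. In Prkcb and Ptk2b all probe sets passed 2-fold, and they did so in 6.99% of the 658 genes. Nothing is read from these shares, because the rule used the same values. The SD within a gene, pooled over the 658 genes, was 0.90. It is a spread between probe sets on the same 2 arrays and holds no variation between arrays, preparations or animals. The Prkcb ratios spanned 1.01 to 1.85, and Prkcd and Prkch each had a signal with 1 probe set and negative values on both arrays with the other. By class, the conventional isoforms had a median log2 ratio of 1.09 over 4 filtered probe sets, the calcium-independent isoforms 0.86 over 6 and the atypical isoform 0.0048 over 2. These class medians rest on Prkcb and Prkce, since Prkca, Prkcd and Prkch all had negative ratios.

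**Figure D3:**
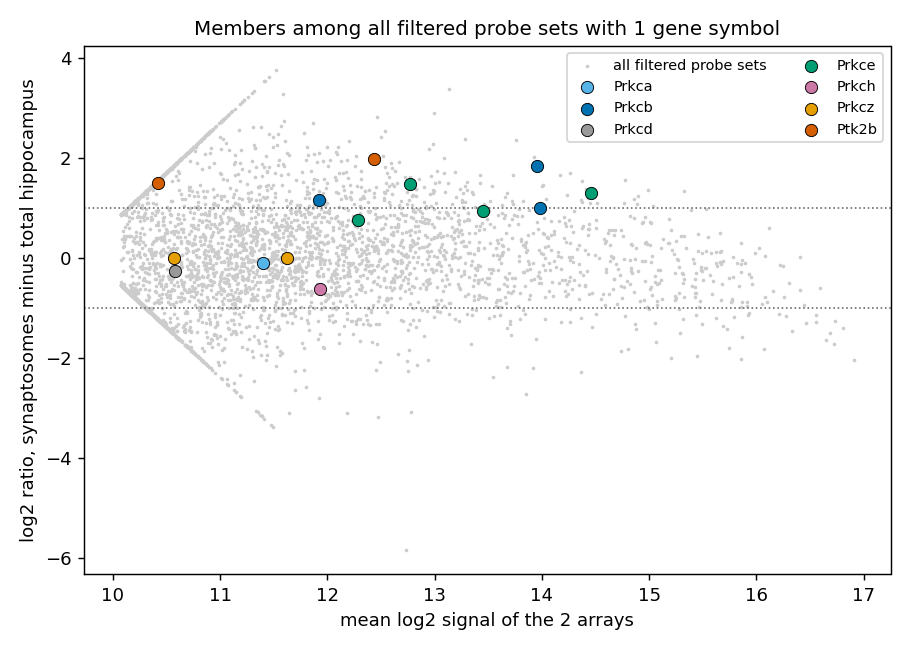
Log2 ratio (synaptosomes minus total hippocampus) against the mean log2 signal of both arrays for the 3569 filtered probe sets (grey) and the 14 member probe sets (coloured by gene), with dotted lines at 2-fold. Grey points on the slanting edges at the left have 1 array at the floor. The member probe sets above the upper line belong to Prkcb, Prkce and Ptk2b.

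The genes whose pair of signals lay nearest to that of Prkcb, by Euclidean distance between log2 levels over the 2 arrays, were Chgb, Ncdn and Nucb1. Chgb, at a distance of 0.057, read 21834 in synaptosomes and 12598 in the hippocampus. Ncdn lay at 0.14 and Nucb1 at 0.15. Nearest to Ptk2b were Pip5k1c, Pi4ka and Dync1i1. Pip5k1c, at a distance of 0.13, read 11251 in synaptosomes and 3068 in the hippocampus, Pi4ka lay at 0.18 and Dync1i1 at 0.24. A likeness over 2 arrays says only that both signals were similar, and a signal also depends on the probes.

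Upstream of the kinases, the list of Gq-coupled receptors, phospholipases C and enzymes of diacylglycerol and inositol phosphates had 21 of its 28 genes on the array, of which 15 passed the filter. In this list 5 genes were at least 2-fold higher in synaptosomes, 0 were lower and 10 lay between, beside 19.1% higher and 14.3% lower over all filtered genes. The list's median log2 ratio was 0.39, against 0.0014 for all filtered genes. Dgkg and Dgka, diacylglycerol kinases that remove the activator of PKC, were 5.66-fold and 4.96-fold higher. Dgkg read 7921 in synaptosomes and 1574 in the hippocampus, and Dgka 4463 in synaptosomes and 1013 in the hippocampus. Itpka, which phosphorylates inositol trisphosphate, was 3.92-fold higher, with 8685 in synaptosomes and 2491 in the hippocampus. The remaining 2 genes past 2-fold, named after their values were seen, were Itpr1, an intracellular calcium channel, and Plcl1, a catalytically inactive phospholipase C relative, at log2 ratios of 1.75 and 1.09. The hippocampal signals of all 5 lay within the noise guide. A second probe set of Itpr1 had a log2 ratio of -0.21, other filtered probe sets of Plcl1 had 0.28 and at least 1.16, and a second of Dgkg was at the floor on both arrays. The lowest genes were Plcb2 at -0.80, Grm5, a glutamate receptor coupled to Gq, at -0.63 with its synaptosome signal at the floor, and Plcg2 at -0.48. The signals of Plcb2, Grm5 and Plcg2 lay within the noise guide on both arrays, and Grm5 passed the filter through its hippocampal signal alone.

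Substrates and anchors of PKC were divided. Of 13 genes on the array 10 passed the filter, 3 at least 2-fold higher in synaptosomes, 2 at least 2-fold lower and 5 between, beside shares of 19.1% and 14.3% over all filtered genes. Their median log2 ratio was 0.18, and it was below 0 in 4 of 11 alternatives. Add2, which encodes beta-adducin of the membrane skeleton, read 2745 in synaptosomes and -99 in the hippocampus, at least 3.65-fold higher against the floor of 846. Both of its signals lay within the noise guide, and it passed the filter through its synaptosome signal alone. Rack1, a scaffold that binds activated PKC, read 7395 in synaptosomes and 3825 in the hippocampus, 2.18-fold higher, with the hippocampal signal within the noise guide. Marcks, a membrane-bound PKC substrate, read 3305 in synaptosomes and 1521 in the hippocampus with the probe set used, 2.44-fold higher, with the hippocampal signal within the noise guide. Its other 2 filtered probe sets were lower in synaptosomes, at log2 ratios of -0.92 and, with synaptosomes at the floor, -0.60. The neuronal PKC substrates Gap43 and Nrgn were the lowest. Gap43, a growth cone and axon protein, read 7946 in synaptosomes and 19570 in the hippocampus, 2.19-fold lower in synaptosomes. Nrgn, the calmodulin-binding protein neurogranin of dendrites, read 13062 in synaptosomes and 29598 in the hippocampus, a log2 ratio of -1.01, and -0.17 with its other probe set. Pebp1 had a log2 ratio of -0.47.

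Among partners of Pyk2 and Src family kinases, 17 of 26 genes were on the array and 11 passed the filter. Of these, 5 were at least 2-fold higher in synaptosomes, 0 were lower and 6 lay between, beside 19.1% higher and 14.3% lower over all filtered genes. The median here was 0.91 on the log2 scale, against 0.0014 for all filtered genes. Ptk2, Src and Pxn were at the floor in the hippocampus and passed the filter through their synaptosome signals, so they had to be higher. With these left out, 2 of the other 8 genes were at least 2-fold higher. The share over all genes above 846 on each array was not computed, so this count has no like share beside it. With only probe sets measured above 846 on each array, where a median of -0.135 was subtracted, the list's median was 0.43. Ptk2, encoding focal adhesion kinase, the nearest relative of Pyk2, read 3658 in synaptosomes and -232 in the hippocampus, at least 4.87-fold higher against the floor of 846. Ezr, encoding ezrin, a linker of membrane and actin, read 2565 in synaptosomes and 924 in the hippocampus, 3.12-fold higher. Src, the kinase that Pyk2 recruits, read 1995 in synaptosomes and -153 in the hippocampus, at least 2.65-fold higher against the same floor. At the noise guides neither Ptk2 nor Src keeps such a bound, since 3658 and 1995 both lie below 5280. The other two past 2-fold, named after their values were seen, were Pxn, encoding the adaptor paxillin, and Ptpn5, encoding the phosphatase STEP, at log2 ratios of at least 1.36 and of 1.34. Lck had the lowest log2 ratio, -0.79, followed by Ptpn11 at -0.19 and Sos1 at 0.084. The signals of Lck and Ptpn11 lay within the noise guide on both arrays. The hippocampal signals of Ptk2, Ezr, Src, Pxn and Ptpn5 lay within the noise guide, as did the synaptosome signals of Ezr, Src and Pxn. The list's median ranged from 0.40 to 0.76 over 11 alternatives, all below the 0.91 reported. Of the kinases related to PKC, Prkd3 and Pkn2 were on the array and at the floor on both arrays, and the other 6 genes of that list were not analysed here.

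**Figure D4:**
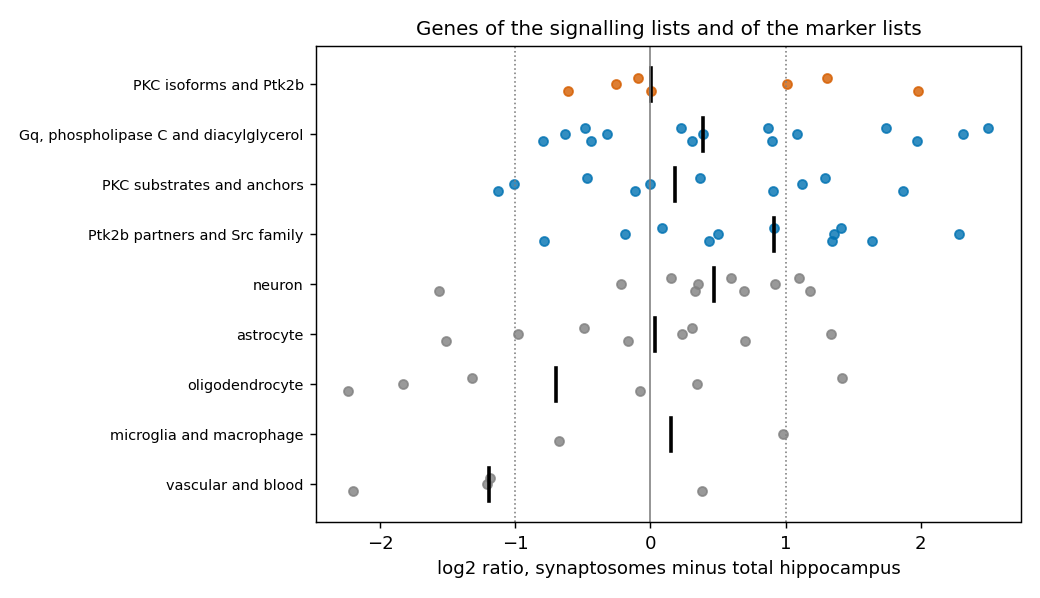
Log2 ratio (synaptosomes minus total hippocampus) of each filtered gene, with its brightest probe set, for the members (orange), the signalling lists (blue) and the marker lists of brain cell types (grey); black bars are medians. Some points, such as Ptk2 and Src, are bounds because 1 array was at the floor. Medians are 0.0043 for the members and 0.91 for the Pyk2 partners, against -1.19 for vascular and blood markers.

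Markers of brain cell types are set beside the shares over all filtered genes, 19.1% at least 2-fold higher in synaptosomes and 14.3% lower. Summed over the genes on the array with negative signals taken as 0, the 7 oligodendrocyte markers read 28861 in synaptosomes and 45872 in the hippocampus, with 3 of 6 filtered genes at least 2-fold lower and 1 higher. The 6 vascular and blood markers read 12530 in synaptosomes and 46717 in the hippocampus, with 3 of 4 filtered genes at least 2-fold lower. Hbb, a haemoglobin gene, alone read 6811 in synaptosomes and 35126 in the hippocampus, which makes up most of that gap. The 8 astrocyte markers read 209883 in synaptosomes and 219962 in the hippocampus, with 1 higher and 1 lower. These counts lay near the shares over all filtered genes, and the median log2 ratio was 0.035. The 11 neuronal markers read 121139 in synaptosomes and 166041 in the hippocampus. Of 10 filtered genes 2 were higher and 1, Snap25, lower, which is also near those shares, and the median log2 ratio was 0.47. Snap25 alone read 32782 in synaptosomes and 109086 in the hippocampus. That gap is larger than the gap of the whole neuronal sum, so Snap25 sets its direction. Prkcb and Ptk2b are also expressed by myeloid cells such as microglia. The 7 microglial markers read 12072 in synaptosomes and 8321 in the hippocampus. Aif1 alone read 9709 in synaptosomes and 5538 in the hippocampus. That gap is larger than the gap of the whole microglial sum, so Aif1 sets its direction. Of the microglial markers only Aif1 and Ptprc passed the filter, while Cx3cr1, Csf1r, Itgam, C1qb and C1qc did not pass. Aif1 had log2 ratios of 0.98 and 2.74 with its filtered probe sets, and U33471_at was at the floor on both arrays. The hippocampal signal behind 2.74 was 1267, below 5280. Ptprc was lower, with 400 in synaptosomes, at the floor, and 1521 in the hippocampus, both within the noise guide. The part of these cell types in the values of Prkcb, Prkce and Ptk2b was not tested.

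**Figure D5:**
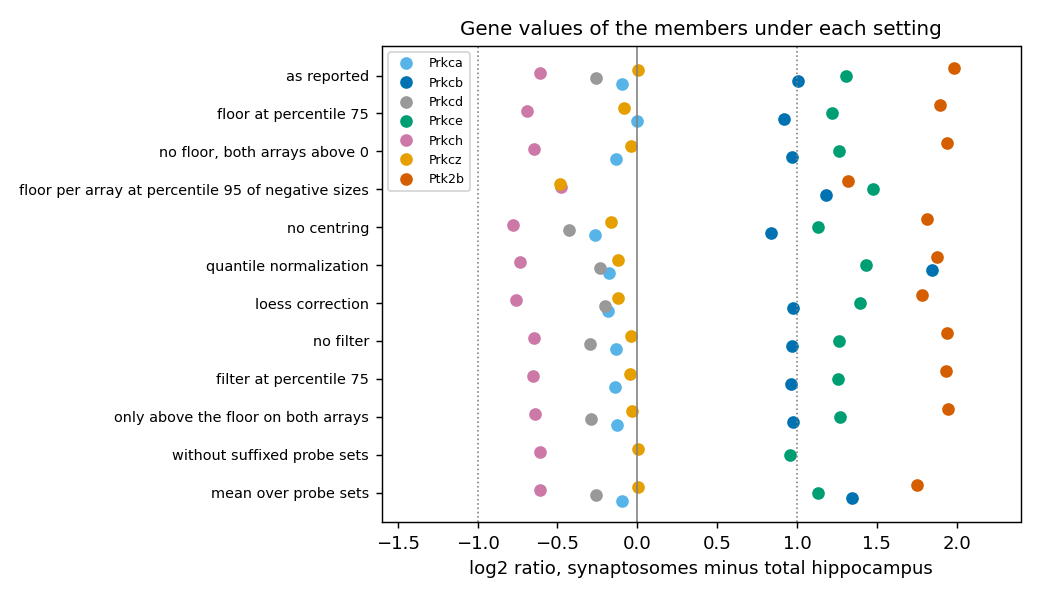
Log2 ratio (synaptosomes minus total hippocampus) of the 7 member genes as reported and under 11 alternative settings, with dotted lines at 2-fold. Ptk2b lies between 1.32 and 1.98 in every setting that gave it a value, Prkce between 0.96 and 1.48 and Prkcb between 0.84 and 1.85. The 1.85 came with quantile normalization, where the brightest Prkcb probe set was X04139_s_at rather than E01789cds_s_at. The 1.32 and 1.48 came with floors at the noise guides and a subtracted median of -0.34.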

How the data were processed

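RNA was extracted with RNeasy columns, copied into cDNA by the SMART method from an oligo(dT) primer with a T7 promoter, and transcribed into biotinylated cRNA, per the labels' protocols. The deposited table holds linear intensity values of 8799 probe sets, 59 of them controls. No source used here gives the software, background correction or scaling. The mean after trimming 2% at each end was 2486 for synaptosomes and 2480 for hippocampus, so the signals themselves were not rescaled. The centring of the log2 ratio multiplied each quotient of synaptosomes to hippocampus by 1.13.

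Gene symbols came from the platform annotation: 7006 non-control probe sets had a single symbol, 308 several and 1426 none. The RefSeq gene table of GRCr8 changed 0 symbols. Values were floored, log2-transformed and centred as described, and a mean log2 level of at least 10.07 passed the filter. A gene took its brightest filtered probe set. Named list genes are the 3 highest and 3 lowest, or as marked. Members and lists were chosen with earlier results of these data known. Python 3.11.15, NumPy 2.4.6, pandas 2.3.3, statsmodels 0.14.6 (loess) and matplotlib 3.10.9 were used, and the calculation was tested on simulated data.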

Additional observations from a re-analysis of the deposited data

How the results depend on the processing

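The results were recomputed with another floor, without centring, after quantile normalization or loess correction, with other filters, without suffixed probe sets and with the mean over probe sets. Of 238 recomputed values, 237 lay within the SD between probe sets of the same gene, 0.90, of the reported value or, for counts, within 1.5 times. The exception was the count of member probe sets at least 2-fold higher: 1 without suffixed probe sets, which left only 4 member probe sets and none of Prkcb or Ptk2b. In the other settings the count was 5 or 6, against 7 as reported, and 0 were lower in each. The limit of 0.90 was wide, since K03486_s_at of Prkcb at 0.40 against 1.17 lay within it. Some values could not change, such as the mean over probe sets of a gene with a single filtered probe set. The share of 237 in 238 is therefore no measure of robustness. Prkcb as a gene kept 2-fold in 3 of 10 alternatives and Ptk2b in 10 of 10. Those of Prkcb include quantile normalization, where its brightest probe set became X04139_s_at, and the mean over probe sets. With floors at the noise guides the values of both genes include the subtraction of a median of -0.34. These floors were not tested without it, so both genes kept 2-fold there as centred values only. The median of PKC substrates and anchors changed sign, with a range of -0.062 to 0.37, and the medians of the phospholipase C list and of the Pyk2 partners ranged from 0.22 to 0.94 and from 0.40 to 0.76. No paired analysis was possible because each group had 1 array. Signals near the noise guide limit the sizes of most folds.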
